A study of Mus musculus with 6 samples.

Results

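Choline, serine and one-carbon metabolism was followed in white adipose tissue through 9 enzymes, Chdh, Phgdh, Psat1, Psph, Shmt1, Shmt2, Mthfd1, Mthfd2 and Cbs. They were read on every probe set to which the platform annotation gives one of these symbols and no other, which gave 23 of the 22626 probe sets measured and 9 of the 12393 genes. The enzymes were chosen by function and by the log2 difference between YY1aKO and control on these same arrays, which was already known, the fall of Chdh and the disagreement between the Phgdh probe sets included. That difference is therefore described for these 9 genes, with its place against the whole array, and no exact p-value is printed for them. Calls that their probe sets passed or missed a limma threshold, and counts of such calls, are given below, also with arrays left out. Because the same difference entered the choice of the genes, these calls describe its size against its spread and are not tests of these genes.

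The samples were 3 from YY1aKO mice and 3 from control mice. Both groups were YY1flox/flox, with Yy1 alleles that Cre recombinase can excise. The YY1aKO mice also had Adiponectin Cre, whose promoter drives Cre in adipocytes, so that other cells of the tissue are not targeted, and an effect of Cre itself cannot be told apart from loss of Yy1. All mice were 8 weeks old, of a mixed C57BL6 and 129 background, and had been kept at 4 °C for 4 days. The sample titles give the tissue as EWAT, the short form of epididymal white adipose tissue. Other labels call it visceral in one field and subcutaneous in another. The labels do not say whether each sample came from a separate mouse, so the errors given here measure the spread between samples. Expression was read on 1-colour Affymetrix arrays, 1 per sample, and precision is limited by their number.

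One-carbon metabolism moves single carbon units on the carrier folate. Serine is made from the glycolytic intermediate 3-phosphoglycerate in consecutive steps by Phgdh, Psat1 and Psph. The serine hydroxymethyltransferases Shmt1 in the cytosol and Shmt2 in mitochondria then pass a carbon of serine to folate, and Mthfd1 in the cytosol and Mthfd2 in mitochondria change the state in which folate carries it. The units go into purines, thymidylate and the methionine cycle. Choline feeds the same network from another side, since Chdh oxidises it in mitochondria towards the methyl donor betaine, and Cbs drains homocysteine from the methionine cycle towards cysteine. Phgdh, Psat1, Psph, Shmt2 and Mthfd2 are known targets of ATF4, the transcription factor of the integrated stress response.

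Phgdh and Psat1, which catalyse successive steps of serine synthesis and whose intensities lay on opposite sides of the controls in YY1aKO, are shown by the 250 bases before an annotated start of each. The sequences are those of RefSeq on GRCm38.p6, both on the minus strand and written 5′ to 3′, and capitals would mark matches to the motifs searched, of which these stretches hold none. The Phgdh stretch is chr3:98339970-98340219. The Psat1 stretch is chr19:15925060-15925309, before the farther upstream of its 2 annotated starts. The annotation places no gene in either stretch.
Phgdh: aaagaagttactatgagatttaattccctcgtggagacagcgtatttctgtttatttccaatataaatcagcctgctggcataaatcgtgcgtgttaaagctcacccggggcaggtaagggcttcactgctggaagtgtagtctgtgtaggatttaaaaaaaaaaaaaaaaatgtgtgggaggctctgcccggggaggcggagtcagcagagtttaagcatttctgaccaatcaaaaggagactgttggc
Psat1: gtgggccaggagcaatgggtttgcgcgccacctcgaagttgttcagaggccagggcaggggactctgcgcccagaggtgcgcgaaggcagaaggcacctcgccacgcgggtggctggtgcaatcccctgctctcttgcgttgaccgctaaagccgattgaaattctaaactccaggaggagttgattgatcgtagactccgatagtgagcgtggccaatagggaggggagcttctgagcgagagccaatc
The YY1 motif AANATGGC and the ATF4 element TGATGNAA were searched on both strands of the windows reaching from 250 bases before to 50 after each annotated start. The 9 genes have 12 such windows. The YY1 letters were in 1 of them, the window of one of 3 Chdh starts, against 6.05% of 32851 windows over all genes, and the ATF4 letters were in none of the 12, against 3.97% of all windows. The Chdh match, in capitals with its surroundings on the plus strand, lies at chr14:30008776-30008805, inside the annotated span of the neighbouring gene Il17rb.
Chdh: gcaacactagcAACATGGCccggccactgg
A match of this kind describes letters in a window and does not show binding.

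The targeted gene separated the groups. On its leading probe set, the one with the highest mean over the 6 arrays, Yy1 read 373, 323 and 315 in YY1aKO, against 1785, 1846 and 1596 in control. Array medians ran from 134 to 137 in YY1aKO and were 140 in every control. Control 2 stood apart. It correlated with the other arrays at no more than 0.955 (Pearson, log2, across probe sets), while the other 5 arrays each reached at least 0.989 with another array. Of 10 marker genes of the epididymis, the sperm duct beside the epididymal fat, 6 had a probe set. Their summed intensity was 181 to 195 in YY1aKO, against 172, 91876 and 859 in controls 1 to 3. The 5 measured of 7 adipocyte markers summed to 64011 to 69399 in YY1aKO and to 69932, 49027 and 68744 in controls 1 to 3, so adipocyte markers were bright on every array, with the lowest sum in control 2. The 4 endothelial markers summed to 1460 to 1876 in YY1aKO, against 2430, 803 and 1999. Values are therefore given with all 6 arrays and also without control 2, and the part of these other tissues in the results was not tested.

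With 6 arrays, 3 of the 23 probe sets passed an adjusted p of 0.05 in the limma fit over all probe sets, all of them lower in YY1aKO and all of Chdh or Phgdh, where 10.2% of all probe sets passed. Without control 2 there were 16, 11 higher and 5 lower, where 24.4% of all passed. The YY1aKO and control arrays did not overlap on 10 of the 23 with all arrays, against 37.0% of all probe sets, and on 19 without control 2, against 53.4%. Read on the leading probe set of each gene, 2 of the 9 were lower and none was higher with 6 arrays (4 of the 9 had an unadjusted limma p under 0.05), against 4.04% lower and 6.92% higher of all genes. Without control 2, 2 were lower and 4 higher, against 11.5% lower and 14.5% higher. The median log2 difference over the 9 genes was 0.12 with 6 arrays and 0.02 without control 2, beside 0.04 and 0.01 over all genes. Because the difference itself entered the choice of the genes, these shares place them on the array and nothing more is read from them.

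**Figure D1:**
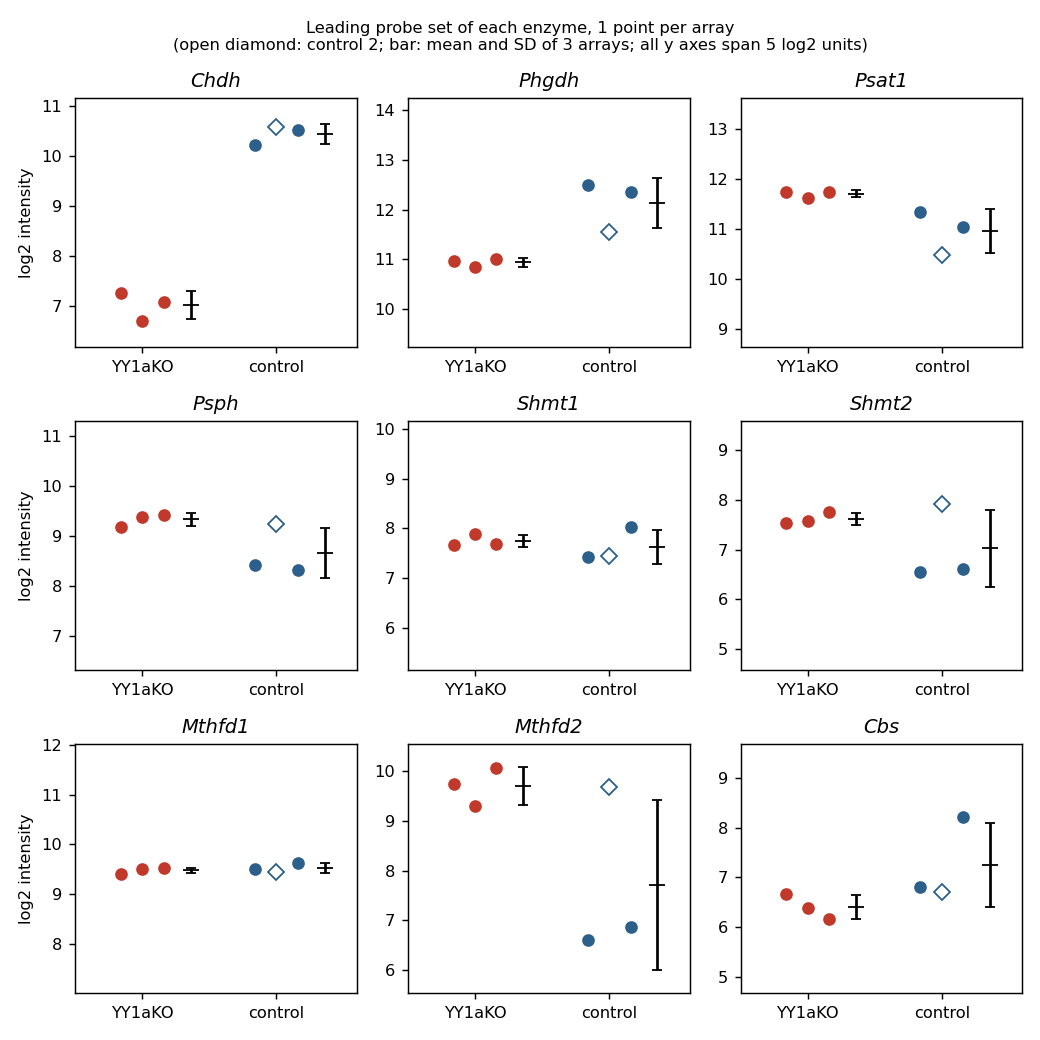
Log2 intensity of the leading probe set of each of the 9 enzymes, with 1 point per array, YY1aKO left and control right; control 2 is the open diamond and bars give the mean and SD of 3 arrays. Chdh and Phgdh lie lower in all YY1aKO arrays than in any control, while for Psph, Shmt2 and Mthfd2 control 2 lies with the YY1aKO arrays, away from controls 1 and 3.

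Chdh, the mitochondrial choline dehydrogenase, had the largest difference of the 9 genes. Its single probe set read 154, 104 and 135 in YY1aKO, against 1197, 1541 and 1470 in controls 1 to 3. Every YY1aKO array was several times below the dimmest control, and control 2 lay with the other controls, 0.22 log2 units above their mean. On the log2 scale Chdh averaged 7.01 ± 0.29 in YY1aKO and 10.45 ± 0.19 in control (SD, n = 3 each). It fell by 3.44 ± 0.18 log2 units (SE), or 10.8-fold, and the difference without control 2 was -3.36 ± 0.19. The fall stayed past the threshold in all 6 fits that left out 1 array, with differences from -3.56 to -3.28. Since this probe set has the suffix _s_at, which marks probes that can match more than 1 transcript, and Chdh has no second one, no other probe set could be compared with it.

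The genes around Chdh did not share its size of change. Of 7 other genes of choline and betaine oxidation, all with a probe set, none passed in limma with 6 arrays or without control 2, and none had an unadjusted p under 0.05 in either fit. Their median difference was -0.03 with 6 arrays, beside 0.04 over all genes. Bhmt, Bhmt2 and Dmgdh, which are among them, read at most 17.4, 28.2 and 18.1 on any array. These readings are near the lower end of the intensities, where a fall like that of Chdh could hardly show. Aldh7a1, which oxidises betaine aldehyde made by Chdh, read 632, 738 and 647 in YY1aKO, against 742, 830 and 722 in control (log2 difference -0.19 ± 0.11). Pipox, a peroxisomal sarcosine oxidase, read 43.1, 27.5 and 25.4 in YY1aKO, against 37.8, 96.1 and 336 in control, with overlapping groups. None of 6 genes of choline uptake and phosphocholine synthesis passed with 6 arrays in limma on its leading probe set, or reached an unadjusted p of 0.05 there. The choline transporter Slc44a1 differed between its probe sets. On its leading one it read 1310, 1293 and 1118 in YY1aKO, against 1271, 1226 and 1369 in control (-0.06 ± 0.10, adjusted p = 0.76). On 1423865_at Slc44a1 read 1164, 1128 and 1109 in YY1aKO, against 684, 468 and 668 in control, without overlap (0.92 ± 0.16, limma adjusted p = 0.025, and 0.75 ± 0.08 without control 2). Pemt, which makes phosphatidylcholine by methylating phosphatidylethanolamine, read 254, 340 and 341 in YY1aKO, against 129, 861 and 132 in control. Without control 2, where Pemt was 2.72 log2 units above the other controls, it was higher in YY1aKO by 1.24 ± 0.15 (limma adjusted p = 0.004), and with 6 arrays by 0.33 ± 0.75 (adjusted p = 0.82).

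Phgdh, which commits 3-phosphoglycerate to serine, had negative differences on 3 of its 4 probe sets, 2 of them past the threshold, and a positive one on the fourth with 6 arrays. The leading probe set, 1437621_x_at, read 2011, 1831 and 2070 in YY1aKO, against 5776, 3001 and 5211 in control. All YY1aKO arrays lay under every control, and control 2 lay between the YY1aKO arrays and the other controls. The log2 mean was 10.94 ± 0.09 in YY1aKO and 12.13 ± 0.51 in control (SD, n = 3 each), a fall of 1.19 ± 0.25 (SE), or 2.28-fold. Without control 2 the difference was -1.48 ± 0.10. On 1456584_x_at Phgdh read 807, 719 and 812 in YY1aKO, against 2016, 1118 and 1787 in control, and fell by 1.03 ± 0.23. On 1426658_x_at it read 1748, 1787 and 1722 in YY1aKO, against 4733, 2459 and 4132 in control, a difference of -1.05 ± 0.25 that missed the threshold with 6 arrays and passed it without control 2, at -1.34 ± 0.09. With any array other than control 2 left out, none of the Phgdh probe sets passed, although 3 kept an unadjusted limma p under 0.05. Without control 2 these 3 passed in all 5 fits that left out a further array.

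The fourth Phgdh probe set, 1454714_x_at, differed from the others most on control 2. It read 2496, 1972 and 1412 in YY1aKO, against 4347, 18.5 and 4024 in control. Within YY1aKO it was also more spread, with a log2 SD of 0.41, against 0.03 to 0.1 on the other 3, and YY1aKO 3 was clearly its lowest YY1aKO array. Controls 1 and 3 were above every YY1aKO array, as on the other 3 probe sets, whereas control 2 was 7.82 log2 units below the mean of controls 1 and 3. On the other 3 the same array was 0.76 to 0.87 below it. The reading of control 2 set the sign of the difference, which was 1.47 ± 2.14 with 6 arrays and did not pass, and -1.13 ± 0.23 without control 2, where it passed and the groups did not overlap. A low reading in control 2 was also given by 1456471_x_at, which is annotated to Phgdh together with the predicted gene Gm6756 and so was not counted among the 4. It read 531, 457 and 296 in YY1aKO, against 909, 17.9 and 843 in control. Control 2 differed from the mean of controls 1 and 3 there by -5.61 log2 units, and the difference was 0.80 ± 1.55 with 6 arrays and -1.07 ± 0.24 without control 2.

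Between pairs of the other 3 probe sets the log2 values correlated at 0.992 to 0.999 over the 6 arrays, and 1454714_x_at correlated with them at 0.174 to 0.215 over 6 arrays and at 0.891 to 0.910 over the 5 without control 2 (Pearson, on shared arrays, given as a description). The mean of the 4 probe sets differed by -0.45 ± 0.72 with 6 arrays and did not pass. All 4 carry the suffix _x_at, which marks probes that can cross-hybridise with other transcripts. The other probe set that shares its annotation with a predicted gene, 1426657_s_at (Phgdh and Gm8096), read 586, 549 and 586 in YY1aKO, against 2011, 1052 and 1714 in control. Its difference of -1.42 ± 0.24 lay on the side of the 3 that correlated closely, past the threshold with 6 arrays, and was -1.70 ± 0.10 without control 2.

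**Figure D2:**
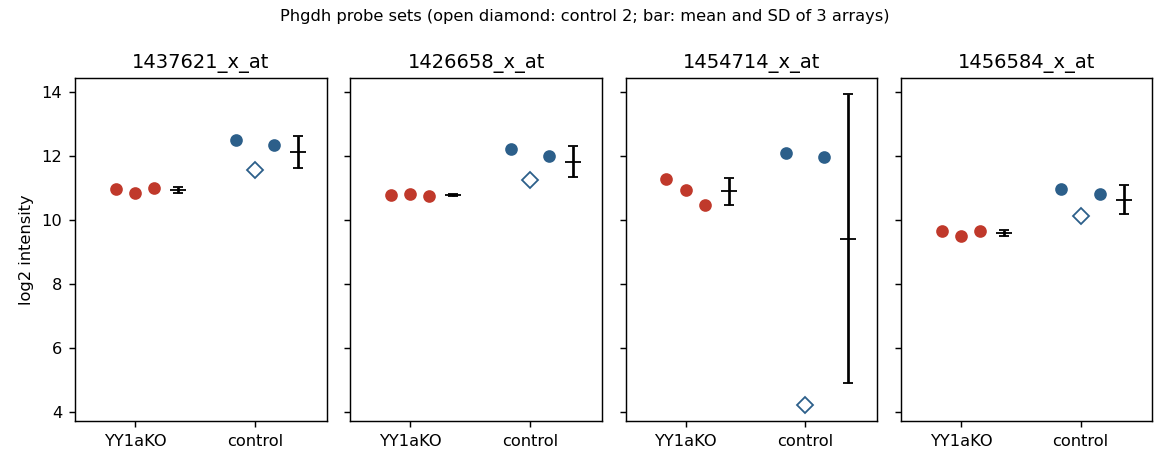
Log2 intensity of the 4 Phgdh probe sets, with 1 point per array, YY1aKO left and control right; control 2 is the open diamond and bars give the mean and SD of 3 arrays. Controls 1 and 3 lie above all YY1aKO arrays on each probe set, and control 2 falls to 18.5 on the linear scale on 1454714_x_at alone.

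Psat1 and Psph, which follow Phgdh in serine synthesis, had positive differences, none of them past the threshold with 6 arrays. Psat1, the phosphoserine aminotransferase, read 3442, 3147 and 3439 in YY1aKO on 1451064_a_at, against 2595, 1421 and 2112 in control. The groups did not overlap, and control 2 was the lowest array. The log2 difference was 0.75 ± 0.22 with 6 arrays, which did not pass, and 0.51 ± 0.12 without control 2, which did. The second Psat1 probe set, 1454607_s_at, read 2323, 2216 and 2407 in YY1aKO, against 1702, 966 and 1396 in control, and gave 0.81 ± 0.21 and 0.59 ± 0.11. With control 2 and 1 further array left out, the second Psat1 probe set passed in 4 of 5 fits and the leading one in 1 of 5, the fewest of the 6 genes that passed on their leading probe set without control 2.

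Psph, the phosphatase that releases serine, read 582, 669 and 688 in YY1aKO on its only probe set, against 341, 600 and 319 in control. Control 2 lay within the YY1aKO range, and the other controls lay below it. The log2 mean was 9.33 ± 0.13 in YY1aKO and 8.65 ± 0.50 in control (SD, n = 3 each). With 6 arrays the difference of 0.68 ± 0.26 did not pass. Without control 2 it was 0.97 ± 0.11, or 1.96-fold, and it passed in all 5 fits that left out a further array.

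Mitochondrial Shmt2 was read on 4 probe sets that agreed in direction. On 1455084_x_at it read 184, 191 and 215 in YY1aKO, against 93.6, 241 and 97.7 in control, so control 2 was the brightest of all arrays and the other controls the dimmest. The difference was 0.59 ± 0.37 with 6 arrays, which did not pass, and 1.04 ± 0.10, or 2.05-fold, without control 2. The other 3 probe sets had differences of 0.28 to 0.44 with 6 arrays, none of which passed, and of 0.52 to 0.58 without control 2, all of which did. Only 1455985_x_at separated the groups with all arrays, with 141, 156 and 146 in YY1aKO, against 95.3, 123 and 111 in control. The dimmest, 1434204_x_at, read at most 29.8 on any array, and how much of such a reading is background is not known.

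The 4 probe sets of cytosolic Shmt1 had positive differences in both fits, but differed in size and in whether they passed. The leading one, 1425177_at, read 204, 237 and 207 in YY1aKO, against 172, 174 and 261 in control. These groups overlapped, with a difference of 0.12 ± 0.19, and 0.02 ± 0.19 without control 2. On 1425179_at Shmt1 read 118, 128 and 120 in YY1aKO, against 86.2, 102 and 55.3 in control, a difference of 0.63 ± 0.23 that did not pass with 6 arrays, and of 0.82 ± 0.19 without control 2, which did. On 1425178_s_at the difference was 0.41 ± 0.15, and 0.55 ± 0.09 without control 2, which passed, and on 1422198_a_at it was 0.21 ± 0.15 and 0.25 ± 0.16, which passed in neither fit. None of the 4 passed with 6 arrays.

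Mthfd1, the cytosolic folate enzyme that carries several activities in 1 protein, had no difference past the threshold. It read 680, 725 and 733 in YY1aKO on 1415916_a_at, against 729, 696 and 794 in control, a log2 difference of -0.05 ± 0.09. Its other probe sets differed by 0.08 ± 0.08 and 0.18 ± 0.10, and none passed in either fit. The SEs of 0.08 to 0.10 were the smallest of the 23 probe sets with 6 arrays, and the differences stayed between -0.09 and 0.26 in the fits that left out 1 of the 6 arrays.

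Mthfd2, the mitochondrial counterpart, differed most after Chdh, and its value turned on control 2. On 1419254_at it read 853, 630 and 1064 in YY1aKO, against 97.3, 821 and 117 in control. Controls 1 and 3 were far below every YY1aKO array, while control 2 lay among these arrays, 2.95 log2 units above the other controls. With 6 arrays the difference was 1.98 ± 0.83, which did not pass, and without control 2 it was 2.96 ± 0.22, or 7.79-fold, which did. The second probe set, 1419253_at, read 618, 435 and 697 in YY1aKO, against 93.6, 591 and 126 in control, and its difference was 1.58 ± 0.70 and 2.40 ± 0.23 without control 2. Both probe sets passed in all 5 fits without control 2 and a further array. Mthfd2 is abundant in dividing cells. The 3 measured of 4 genes of dividing cells summed to 459, 417 and 323 in YY1aKO, against 432, 276 and 218 in control, with overlapping groups. Whether dividing cells bear on the Mthfd2 readings was not tested.

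Cbs, the first enzyme of transsulfuration, was dim and varied most in control 3. It read 101, 83.8 and 71.8 in YY1aKO on 1423844_s_at, against 112, 105 and 296 in control. The groups did not overlap, but controls 1 and 2 lay just above the YY1aKO range. The difference of -0.84 ± 0.42 did not pass, nor did -1.10 ± 0.39 without control 2, and it ranged from -1.10 to -0.36 in the fits that left out 1 of the 6 arrays. The second probe set read 28.3, 31.7 and 27.4 in YY1aKO, against 33.5, 30.2 and 59.8 in control, and did not pass, with overlapping groups. The sum of the epididymal markers was also higher in control 3 than in control 1, as given above, mostly through Gpx5 (639 against 39). Adam7 (75.5 against 27), Lcn5 (50.1 against 18.4) and Cst11 (20.9 against 12.6) were higher too. Lcn8 (49.2 against 50.6) and Ros1 (24.5 against 24.9) were not. Control 2, with by far the largest sum of these markers, had the lowest Cbs reading of the controls on both probe sets (105 and 30.2). Whether these markers bear on Cbs was not tested.

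**Figure D3:**
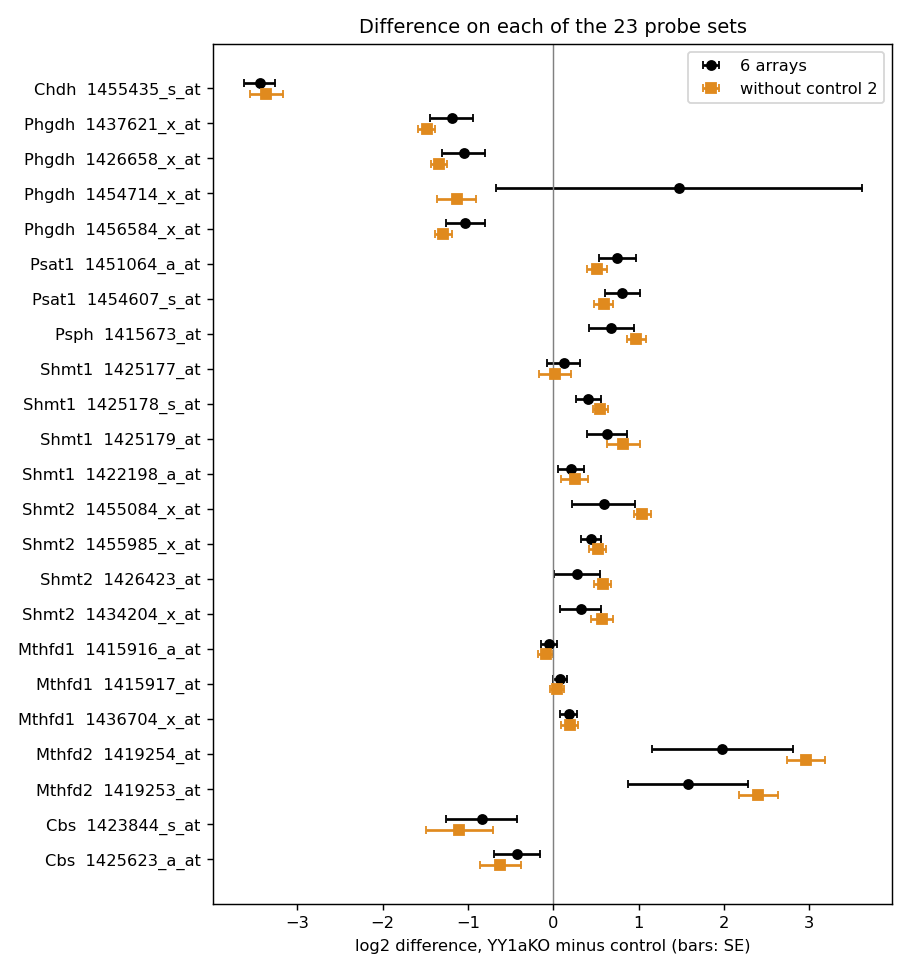
Log2 difference, YY1aKO minus control, on each of the 23 probe sets with its SE, with 6 arrays (black circles) and without control 2 (orange squares). The Phgdh probe set 1454714_x_at moves to the other side of 0 without control 2, and the Mthfd2 and Shmt2 probe sets move up with smaller errors.

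Control 2 bore on the 9 genes in both directions. It lay nearer to the YY1aKO mean than to the mean of controls 1 and 3 for Phgdh, Psph, Shmt2, Mthfd1, Mthfd2 and Cbs, 6 of the 9 genes on their leading probe sets, and for 42.6% of all genes. The array was above the mean of controls 1 and 3 for Mthfd2 (2.95 log2 units), Shmt2 (1.33) and Psph (0.86) on these probe sets. It was below that mean for Phgdh (-0.87), Cbs (-0.79), Psat1 (-0.72) and Shmt1 (-0.28). For Shmt1 it lay between controls 1 and 3 (174, against 172 and 261), and above their mean on the other probe sets (0.12 to 0.56). As the tissue samples are mixtures of cells, fewer cells of a type and less RNA per cell cannot be told apart here.

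The patterns over the 6 arrays most like that of the Chdh probe set, among 7435 other genes of the brightest 60% by mean level, were those of Nrbp2, Akirin2, Rbmx, Srsf2 and Poglut1 (Pearson r of log2 values 0.9939 to 0.9972). Their own differences were smaller, from -2.19 for Nrbp2 to -0.33 for Akirin2. For Phgdh on its leading probe set the nearest were Aldh6a1, Son, Clybl, Fubp1 and Pon3, with r of 0.9946 to 0.998. Their differences ran from -2.69 for Clybl to -0.22 for Son. These r values rest on 6 arrays in 2 groups and on control 2, and are given only as a ranking of likeness.

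The other genes of these pathways were taken from a list of 61, of which 45 had a single-gene probe set and were read on their leading one; the rest were not analysed here. With 6 arrays, 3 were higher and 1 was lower, where 6.92% of all genes were higher and 4.04% lower. Without control 2, 8 were higher and 4 lower, where 14.5% of all genes were higher and 11.5% lower. The median difference of the 45 was 0.04 with 6 arrays and 0.05 without control 2, beside 0.04 and 0.01 over all genes. Among genes that use serine and glycine, 1 of 4 measured passed. This was Srr, which converts L-serine to D-serine, with 678, 627 and 740 in YY1aKO, against 314, 308 and 319 in control. All YY1aKO arrays lay well above every control, and Srr rose by 1.12 ± 0.09 (limma adjusted p = 0.008), with all 4 of its probe sets past the threshold. Leaving out YY1aKO 2 or YY1aKO 3 moved the adjusted p of Srr to 0.0531 and 0.0622, the largest of the fits without 1 array.

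Of 10 measured genes of the folate cycle and folate transport, 1 was lower and 1 higher. Aldh1l1, the cytosolic formyltetrahydrofolate dehydrogenase, which removes one-carbon units from folate as carbon dioxide, read 211, 320 and 265 in YY1aKO, against 2042, 540 and 1679 in control. The groups did not overlap, and control 2 was closest to YY1aKO. It fell by 2.23 ± 0.51 (limma adjusted p = 0.049), with a difference of -2.82 ± 0.19 (adjusted p = 0.0012) without control 2, but the call was lost when any other array was left out of the 6 (adjusted p up to 0.166). Its second probe set, at 20.9 to 26.4 in YY1aKO and 22.0 to 45.9 in control, did not pass with 6 arrays. Without control 2 this dim probe set passed, at -0.71 ± 0.18 (limma adjusted p = 0.033). Mtfmt, which formylates the initiator tRNA of mitochondria with a folate-borne unit, rose by 0.49 ± 0.11 (limma adjusted p = 0.042), a call kept in 2 of the 6 fits without 1 array. Without control 2 the proton-coupled folate transporter Slc46a1 was also higher, by 0.84 ± 0.12, and the lysosomal folate hydrolase Ggh lower, by -0.45.

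In the methionine cycle 1 of 6 measured genes passed, Mtap, which recovers methionine from methylthioadenosine, at 0.43 ± 0.09 (adjusted p = 0.043), with 2 of its 4 probe sets past the threshold. This call was kept in 1 of the 6 fits without 1 array. Mtrr, which keeps methionine synthase active, had 0.70 ± 0.18 (adjusted p = 0.064), and 0.88 ± 0.12 without control 2 (adjusted p = 0.0055). None of 8 genes of transsulfuration and cysteine use passed in limma with 6 arrays (2 had an unadjusted p under 0.05), and 2 were lower without control 2, Sqor, the mitochondrial sulfide oxidase (-0.70 ± 0.11), and Csad, of taurine synthesis (-0.58 ± 0.13). The second Sqor probe set, at most 21.3 on any array, had positive differences that passed in neither fit (0.3 ± 0.11, and 0.29 ± 0.11 without control 2). Cth, which follows Cbs, read 123, 55.3 and 175 in YY1aKO, against 196, 808 and 407 in control, and did not pass (log2 difference -1.92 ± 0.63, adjusted p = 0.11). Of 4 measured genes of purine synthesis none passed in limma with 6 arrays (2 had an unadjusted p under 0.05), and Ppat (0.72 ± 0.09) and Adsl (0.31 ± 0.09) were higher without control 2. On 1 other probe set each, Gart was lower (-0.49 ± 0.11) and Paics higher (0.35 ± 0.10) without control 2, although neither passed on its leading one.

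The ATF4 arm was read beside the enzymes because several of them are its known targets. Of 7 genes listed for this response and other regulators, 2, Trib3 and Atf5, were higher with 6 arrays, and 3 without control 2. Atf4 itself read 3139, 2145 and 2970 in YY1aKO, against 1644, 2387 and 1763 in control, with control 2 inside the YY1aKO range. Its difference was 0.51 ± 0.21 with 6 arrays (limma adjusted p = 0.18) and 0.67 ± 0.17 without control 2 (adjusted p = 0.038). Trib3, a pseudokinase induced in this response, read 1248, 421 and 1354 in YY1aKO, against 124, 90.0 and 108 in control, and rose by 3.07 ± 0.46 (limma adjusted p = 0.018), a call kept in 3 of the 6 fits without 1 array. Atf5, a related transcription factor, rose by 1.34 ± 0.23 (adjusted p = 0.024), kept in 2 of the 6. Asns, the asparagine synthetase, at 0.65 ± 0.26, and Ddit3, which encodes CHOP, at 0.81 ± 0.33, did not pass (adjusted p = 0.17 and 0.18). In Trib3, Atf4, Atf5, Asns and Ddit3, YY1aKO 2 was the lowest YY1aKO array, with 3 arrays to compare. Among the enzymes named as ATF4 targets, on leading probe sets, YY1aKO 2 was also lowest for Mthfd2, Psat1 and Phgdh. For Psph and Shmt2 the lowest was YY1aKO 1. Of the enzymes not named as targets, YY1aKO 2 was lowest for Chdh, and not for Shmt1, Mthfd1 or Cbs. This array also had the lowest median intensity (134). How often it was lowest over all genes was not counted, and a link between ATF4 and the enzymes was not tested.

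**Figure D4:**
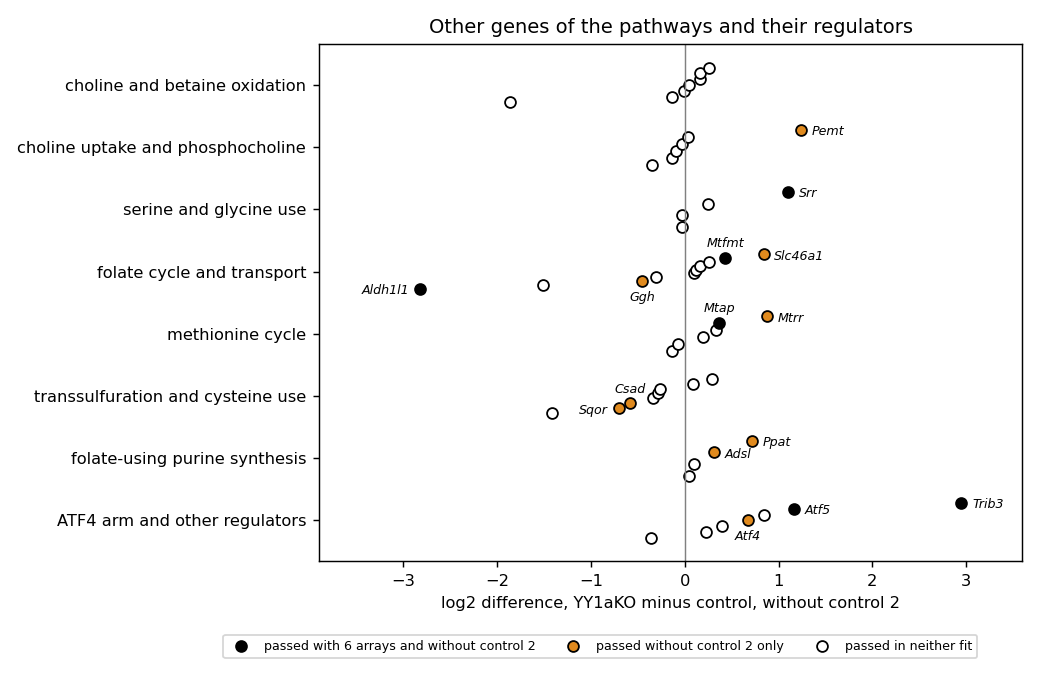
Log2 difference, YY1aKO minus control, without control 2, of the measured genes of the 7 other pathway lists and of the regulators, 1 point per gene on its leading probe set. Black points passed an adjusted p of 0.05 with 6 arrays and without control 2, orange points passed without control 2 only, and open points passed in neither fit; Aldh1l1 lies farthest to the left and Trib3 farthest to the right.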

How the data were processed

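Total RNA of 6 samples was labelled with biotin and hybridised to 1-colour Affymetrix arrays. For each array the authors deposited an intensity for every probe set. The submitters' processing notes name RMA, with no version or settings. They run from 6.09 to 30322 and are thus on a linear scale, and their log2 was taken here. RMA brings the arrays to a common distribution, which hides a shift of most genes in one direction. The 64 array controls were left out, and limma 3.58.1 in R 4.3.3 (lmFit and eBayes, two-sided) was fitted to the other 22626 probe sets with no filter on dim ones, with Benjamini-Hochberg adjustment over all of them and a threshold of 0.05. Differences are YY1aKO minus control with moderated SEs. The platform annotation gives 1 symbol to 20380 probe sets, several to 691 and none to 1555, and a gene was read on its probe set with the highest mean. The fit was tested on simulated data. The members and lists were chosen with earlier results of these data known. Named genes were the members, per list up to 3 others past the threshold (or up to 2 without control 2), the ATF4 arm and the nearest patterns; Aldh7a1, Pipox, Cth, Mtrr, Slc46a1, Ggh, Slc44a1, Gart and Paics were named after their values were seen.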

Additional observations from a re-analysis of the deposited data

How the results depend on the processing

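The 23 probe sets were refitted under 16 settings with 6 arrays, and 276 of 323 differences kept their side of the threshold. With their sign kept, 32 passed only under the other setting and 14 no longer passed. In 1 the sign changed and the new difference passed, Phgdh on 1454714_x_at, at -1.13 without control 2. Its values ran from -1.13 to 2.81 when 1 array was left out. The 276 include differences that changed sign and passed in neither fit. With array weights these were, for example, Phgdh on 1454714_x_at (-0.92) and Shmt1 on 1425177_at (-0.22). Counts over all probe sets, the 9 genes and the 45 other pathway genes were 2306, 2 and 4 with 6 arrays. With the mean of a gene's probe sets they were 1359, 1 and 2, partly because fewer features were fitted. With array weights, whose estimation stopped before it converged, they were 9395, 7 and 19. With an intensity trend and a robust prior, 1 other pathway gene passed. Without _s_at and _x_at probe sets, 0 of the 9 genes passed in limma (2 at an unadjusted p under 0.05), since Chdh and the Phgdh probe sets carry these suffixes. Replicate numbers did not pair the samples (correlations of -0.10 to -0.08 between the deviations of same-numbered samples across probe sets), and with a replicate block 16 probe sets passed, with 0 of the 9 genes, 0 Phgdh probe sets and 0 other pathway genes (4, 3 and 13 at an unadjusted limma p under 0.05, with Chdh at -3.44). Leaving out 1 array gave 18 to 5532 probe sets, 1 to 6 of the 9 genes, 0 to 4 Phgdh probe sets and 0 to 12 other pathway genes; the highest counts were without control 2, and the fewest probe sets passed without YY1aKO 2. Phgdh passed on no probe set when any array other than control 2 was left out. Without control 2, where 5532 probe sets, 6 of the 9 genes and 12 other pathway genes passed, leaving out a further array gave 3160 to 4965, 5 to 7 and 7 to 11. The cause was not tested in any of these settings where none is named. Readings of 30 or less are near the lower end of the intensities, and differences there may be understated.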
